A study of Drosophila melanogaster with 3 samples.

Results

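The microRNA precursor genes of Drosophila melanogaster are the annotated genes of the short hairpin RNAs from which microRNAs are cut. They were chosen by symbol and gene type (a symbol that starts with mir-, or the type pre_miRNA) from the Ensembl annotation of the Release 6 genome (dm6). This gave 260 of the 17683 genes on the 6 chromosome arms. They are described here by peak positions from chromatin immunoprecipitation sequencing (ChIP-seq) of CG17359, a zinc finger protein of the ZAD family that the annotation calls uncharacterized. The line stably expressed a transgenic CG17359 with green fluorescent protein (GFP) at its C terminus, and chromatin bound by it was pulled down with anti-GFP antibody. All 3 biological replicates were whole embryos aged 0 to 14 h of that 1 line, with 1 shared control experiment, and no other genotype, stage or treatment was analysed here. A peak therefore averages over every cell type of the embryo, and few cells with strong binding cannot be told apart from many cells with weak binding. The promoter and the insertion site of the transgene do not appear in the labels.

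A microRNA is transcribed as part of a long primary transcript, often an intron or exon of a protein-coding gene or a long noncoding RNA (lncRNA). In the canonical route Drosha and its partner Pasha cut the hairpin out of the primary transcript, Dicer-1 cuts the hairpin into a short duplex, and one strand is loaded into Argonaute-1. A mirtron skips Drosha, because splicing and debranching of a very short intron release the hairpin. The loaded strand recognises messenger RNAs through its seed, bases 2 to 8 from its 5′ end. The annotated start of a precursor gene is the 5′ end of the hairpin and not the start of transcription of the primary transcript.

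The sequences that carry the results are those of precursors with a CG17359 summit close by, and of the DNA under the strongest of these summits. A summit is the base the authors gave as the peak's highest point. Mature microRNAs are shown first, from RefSeq's Release 6 annotation, with the seed in capitals. The microRNAs ban (bantam), mir-275, mir-276a, mir-34, mir-279 and mir-92b have described functions, and mir-9377, mir-9378 and mir-2491 had the strongest summits.
mir-ban-3p: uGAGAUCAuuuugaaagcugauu
mir-275-3p: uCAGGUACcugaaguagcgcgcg
mir-276a-3p: uAGGAACUucauaccgugcucu
mir-34-5p: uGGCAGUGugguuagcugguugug
mir-279-3p: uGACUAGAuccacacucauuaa
mir-92b-3p: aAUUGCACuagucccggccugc
mir-9377-5p: cGCUCUUUcucucuaucuggcc
mir-9378-5p: aGUGGAGUgagaccucgaguucgg
mir-2491-5p: cGCUGUUGccuuugcaguugcu
No 2 of these 9 share a seed. Several have seed relatives elsewhere. The seed of mir-92b-3p occurred in 5 other precursors (mir-92a and mir-310 to mir-313), that of mir-279-3p in mir-286 and mir-996, that of mir-276a-3p in mir-276b and that of mir-275-3p in mir-306. None of these relatives had a thresholded summit within 500 bp of its start, and 6.92% of all precursors had one. For mir-92a the nearest was 502 bp away. With so few relatives this is a description only.

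Only mir-4962 had a thresholded summit inside its hairpin, a 124-base precursor at chrX:3777382-3777505 on the plus strand. The capital marks the summit base, the second from the 5′ end.
mir-4962 precursor: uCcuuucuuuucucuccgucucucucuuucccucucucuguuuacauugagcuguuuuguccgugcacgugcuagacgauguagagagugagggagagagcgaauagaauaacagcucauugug
The precursor of mir-4918 spans the whole 55-base intron of its host tex, at chr3R:8308431-8308485 on the minus strand. The capitals mark the splice ends GU and AG that it shares with the intron, and it was the 1 mirtron-like precursor with a summit at its start.
mir-4918 precursor: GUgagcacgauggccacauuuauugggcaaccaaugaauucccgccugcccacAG
The genomic DNA around the 3 strongest summits follows, 101 bases centred on the summit and read in the direction of the precursor. Capitals mark the letters TATAAA on either strand.
mir-9377 summit, chrX:12665590-12665690: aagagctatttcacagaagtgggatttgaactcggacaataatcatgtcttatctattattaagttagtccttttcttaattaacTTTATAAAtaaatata
mir-9378 summit, chr2L:10752056-10752156: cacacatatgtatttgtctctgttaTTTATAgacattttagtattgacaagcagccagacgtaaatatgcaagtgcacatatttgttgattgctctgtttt
mir-2491 summit, chrX:22833684-22833784: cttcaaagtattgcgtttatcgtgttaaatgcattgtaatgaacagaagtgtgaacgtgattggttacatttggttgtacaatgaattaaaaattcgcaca
These windows held 25.7%, 32.7% and 32.7% G and C in the order printed. The mir-9377 and mir-9378 windows matched TATAAA and the mir-2491 window did not.

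The files used were 5 peak lists: 1 for each replicate and 1 for the replicates pooled, each of exactly 30000 peaks, and the authors' thresholded list of 7287 peaks. All 7287 thresholded peaks were also pooled peaks. The lists hold no read counts, so sequencing depth is unknown. A peak's signal value is the authors' own and was used only within its list, and ranks (1 is the strongest) were used between lists. To set the replicates beside the thresholded list, the strongest 7287 peaks of each were taken.

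Few microRNA precursors had CG17359 at their start. A thresholded summit lay within 500 bp of the start of 18 of 260 precursors, which is 6.92%, against 20.8% of all genes on the arms. The share was also below that of the 3478 other genes that do not code for protein, of which 9.66% had such a summit, and that of protein-coding genes, of which 23.9% did. Among the strongest peaks of replicates 1, 2 and 3, the counts were 17, 17 and 16 precursors (6.54%, 6.54% and 6.15%). The same lists marked 21.6%, 22.0% and 21.0% of the other genes on the arms, and 9.95%, 10.5% and 9.52% of the other noncoding genes. Precursors averaged 6.41 ± 0.222% and other genes 21.5 ± 0.505% (SD, n = 3 replicates), a difference of -15.1 ± 0.316 percentage points with the same sign in 3 of 3 replicates. The exact two-sided sign-flip permutation test gave p = 0.25, the smallest value 3 replicates allow, so this design cannot reach 0.05. Against other noncoding genes the difference was smaller, -3.58 ± 0.330 points (SD, n = 3), again with the same sign in all replicates and exact p = 0.25. The count of 18 was 9 with a window of 250 bp and 35 with 1000 bp. Keeping only thresholded peaks that overlap one of the 7287 strongest peaks of both other replicates gave 11 precursors without replicate 1, 12 without replicate 2 and 10 without replicate 3. The same filter kept 5758, 5796 and 5593 of all 7287 thresholded peaks. The rule that a gene has a summit at any of its starts favours genes with several starts, and a precursor has only 1. Protein-coding genes with 1 start had a summit in 17.9% of cases. The share of other noncoding genes with 1 start is not given here. The SDs describe the spread between replicate lists over the same genes, and not the spread between genes.

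**Figure D1:**
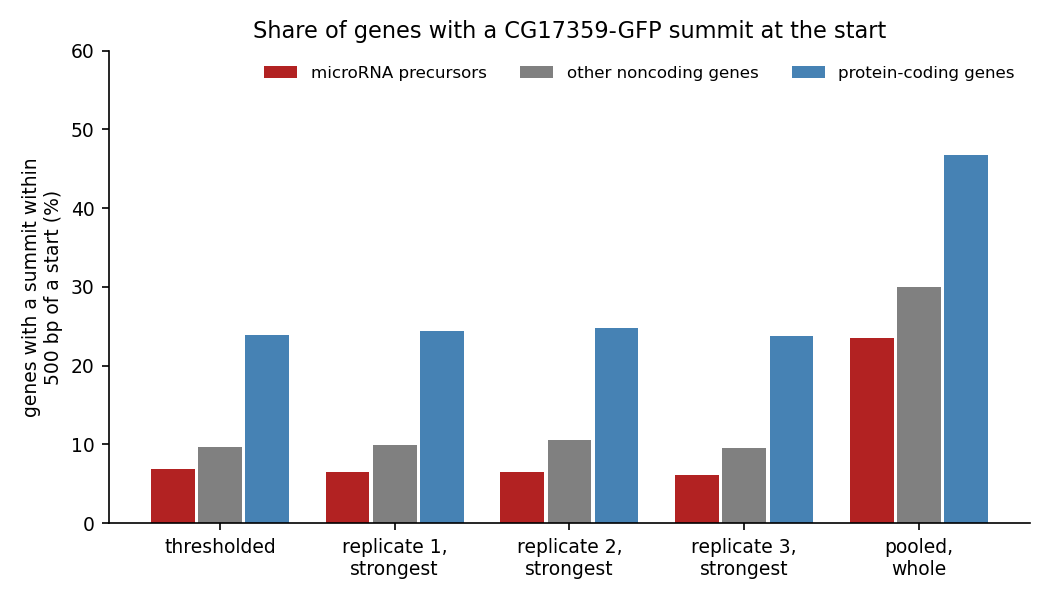
Bars give the percentage of genes with a summit within 500 bp of a start, for microRNA precursors (red), other noncoding genes (grey) and protein-coding genes (blue), in the thresholded list, the 7287 strongest peaks of each replicate and the whole pooled list. The precursor bar is the lowest of the 3 in every list, at 6.92% in the thresholded list and 23.5% in the pooled list.

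In the whole pooled list, which reaches far below the threshold, 61 precursors (23.5%) had a summit within 500 bp. In the same list 43.2% of all genes, 46.8% of protein-coding genes, 30.0% of other noncoding genes and 29.7% of lncRNA genes did. The whole replicate lists marked 66, 75 and 55 precursors (25.4%, 28.8% and 21.2%). The same lists marked 44.4%, 46.2% and 43.9% of all genes, and 30.0%, 31.7% and 30.5% of other noncoding genes. Of the 260 precursors, 18 were marked in the thresholded list, 43 more in the pooled list only or in it and replicate lists, another 43 in 1 or more replicate lists alone, and 156 in no list. Beyond the 18, 14 precursors had a summit within 500 bp in all 3 whole replicate lists without a thresholded one. Matching shares of other genes are not given for these 14 or for the 156. One of the 14 was mir-277, which lies in a muscle and nerve group named below, and its nearest pooled summit was 104 bp upstream at rank 9826 of 30000.

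The 18 marked precursors had 18 different peaks, so no peak was counted for more than 1 precursor. Their median signal value was 335.6, against a median of 388.7 over all thresholded peaks, whose values ran from 211.0 to 8514. In 11 the summit lay upstream of the hairpin's 5′ end and in 7 downstream. For 13 of the 18 the summit was more than 500 bp from every protein-coding start, and for 5 it was closer. The share of all thresholded summits that far from a coding start is not given here. All 18 had a summit within 500 bp in each of the 3 whole replicate lists. The thresholded list was itself made from the replicate and pooled lists, so this is not independent support. In the replicate lists of the 7287 strongest peaks 10 were marked in all 3, 4 in 2 and 4 in 1. These counts, given without the matching shares of all thresholded peaks, take any summit within 500 bp, which need not belong to the thresholded peak. For mir-14, replicate 2 was counted through another summit, 236 bp upstream at rank 4750, while the overlapping peak had rank 8911.

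**Figure D2:**
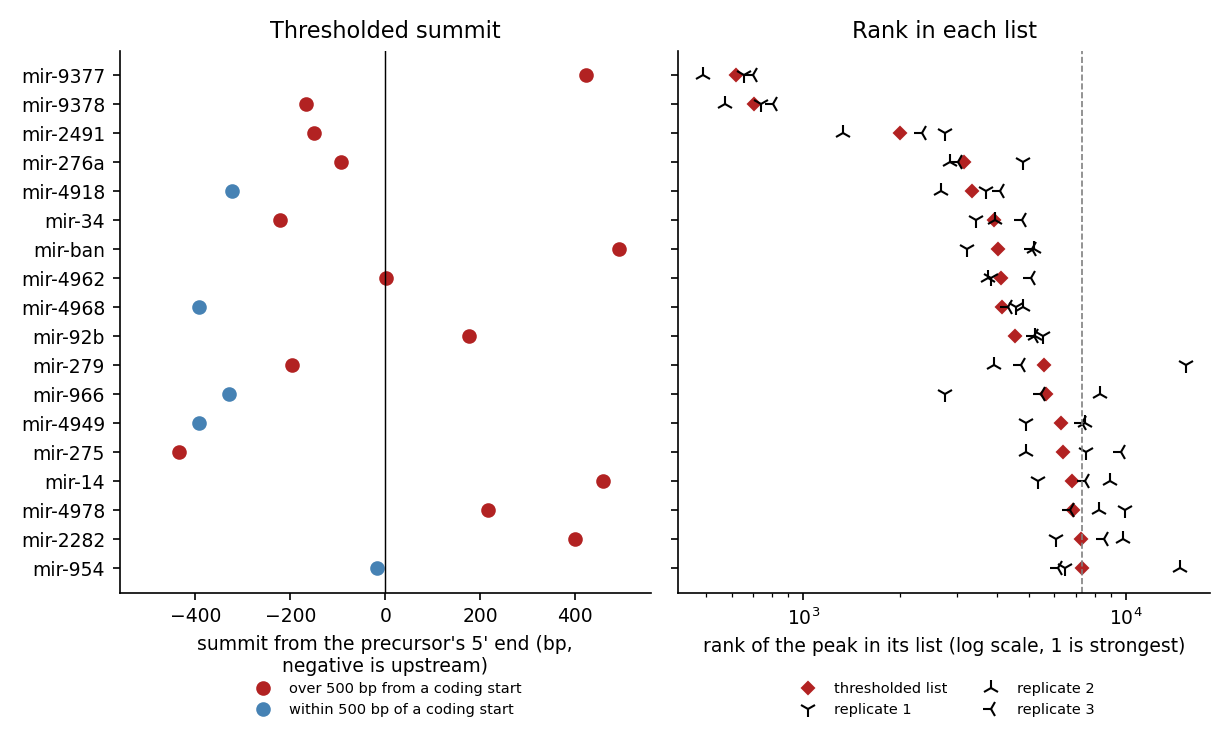
The left panel gives the position of the thresholded summit of each of the 18 precursors in bp from the hairpin's 5′ end, negative being upstream, coloured by whether the summit lies within 500 bp of a protein-coding start. The right panel gives the rank of that peak in the thresholded list and of the overlapping peak in each replicate on a log scale, with a dashed line at rank 7287. Replicates lie close together for mir-9377 and mir-9378 and spread across the line for the weaker precursors such as mir-279 and mir-954.

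The strongest of these peaks lay inside long introns. mir-9377 (FBgn0283559, chrX:12665217-12665268) is in an intron of 16869 bp of Tis11, which encodes a zinc finger protein that promotes decay of messenger RNAs with AU-rich elements. Its summit was 423 bp downstream of the hairpin's start and 5106 bp from the nearest coding start, with a thresholded signal value of 1251 (rank 619). The overlapping replicate peaks had signal values of 337.4, 415.9 and 507.5 at ranks 657, 488 and 699. The peak was high in all replicates.

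mir-9378 (FBgn0283551, chr2L:10751877-10751938) is in an intron of 7238 bp of CG17124. Its summit was 168 bp upstream, with a signal value of 1169 (rank 702), and the replicate peaks had values of 315.5, 385.9 and 469.3 at ranks 740, 574 and 806. mir-2491 (FBgn0262237, chrX:22833440-22833583) is in an intron of 6910 bp of fog, which encodes the secreted signal folded gastrulation that drives apical constriction in gastrulating cells. Its summit was 151 bp upstream with a signal value of 614.8 (rank 2002), and the replicate peaks had values of 138.9, 239.5 and 240.6 at ranks 2755, 1330 and 2334. Neither Tis11 nor fog had a thresholded summit within 500 bp of a start of its own, whereas CG17124 had one of 242.9, which was weaker than the peak at mir-9378.

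Further intronic precursors had weaker peaks. The summit in the mir-4962 hairpin (FBgn0263532), in an intron of Tlk, the gene of the Tousled-like kinase, had a signal value of 351.3 (rank 4092). Its replicate peaks had values of 109.7, 115.4 and 128.5, with summits 3, 17 and 0 bp from the thresholded one. The mir-2282 precursor (FBgn0262260) lies in an intron of sty, which encodes Sprouty, an inhibitor of receptor tyrosine kinase signalling. Its summit, 399 bp downstream, was near the bottom of the thresholded list with a value of 211.4 (rank 7273), and the replicate ranks were 6089, 9766 and 8555. mir-4978 (FBgn0263539) lies antisense to mam, which encodes the Notch coactivator Mastermind, and had a value of 224.0 with replicate ranks of 9961, 8243 and 6732. Both were marked in only 1 of the 3 replicates' strongest 7287 peaks.

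Over all precursors inside a noncoding host 6 of 46 were marked, against 10.4% of lncRNA genes, and mir-276a, mir-ban, mir-34, mir-279, mir-275 and mir-14 were those 6. mir-276a (FBgn0266076, chr3L:10365228-10365325), whose microRNA acts in olfactory memory, had a summit 93 bp upstream of its hairpin. The value was 436.7 (rank 3156), and the replicate peaks had values of 91.52, 141.6 and 198.7 at ranks 4810, 2847 and 3016. The nearest protein-coding start was 47590 bp away. Its seed relative mir-276b had its nearest thresholded summit 24428 bp away.

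bantam (mir-ban, FBgn0262451, chr3L:642208-642288) promotes growth and blocks cell death through the proapoptotic gene hid. Its summit was 493 bp downstream, just inside the window, with a value of 358.2 (rank 4009). Replicate peaks had values of 124.6, 89.81 and 127.9 at ranks 3212, 5205 and 5115. mir-34 (FBgn0262459, chr3R:10100936-10101034), known for its role in ageing of the fly brain, had a summit 222 bp upstream with a value of 366.2 (rank 3916). Its replicate peaks had values of 118.9, 110.9 and 136.6 at ranks 3426, 3937 and 4750. Both were therefore marked among the strongest 7287 peaks of all 3 replicates.

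mir-92b (FBgn0262388, chr3R:25651398-25651497) is in an exon of jigr1, and the microRNAs of the mir-92 pair act in neuroblasts. Its summit was 176 bp downstream with a value of 322.8 (rank 4528), and the replicate peaks had values of 81.43, 89.70 and 126.1 at ranks 5551, 5211 and 5209. mir-279 (FBgn0262448, chr3R:29215585-29215684), which prevents formation of misplaced carbon dioxide sensing neurons, had a summit 196 bp upstream with a value of 269.3 (rank 5576). For mir-279 the replicates did not rank the peak alike. The values were 34.74, 111.8 and 137.0 at ranks 15309, 3894 and 4733, so replicate 1 alone left it outside its strongest 7287 peaks.

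mir-275 and mir-14 had weak peaks. mir-275 (FBgn0262453) shares a short cluster with mir-305, whose microRNA acts in intestinal stem cells. Its summit lay 434 bp upstream with a value of 239.1 (rank 6383), and the replicate ranks of 7497, 4894 and 9622 put it among the strongest 7287 peaks of only 1 replicate. mir-14 (FBgn0262447), a suppressor of cell death that also acts in fat metabolism, had a thresholded summit 460 bp downstream with a value of 225.1 (rank 6802). The overlapping replicate peaks of mir-14 had ranks of 5354, 8911 and 7458.

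The 5 precursors marked close to a protein-coding start were mir-4918, mir-4968, mir-966, mir-4949 and mir-954. mir-4918 (FBgn0263550) in tex, which encodes a subunit of the THO messenger RNA export complex, had a summit 322 bp upstream and 162 bp from the tex start. Its signal value was 418.0 (rank 3324), and the replicate peaks had values of 112.3, 148.7 and 156.0. mir-4968 (FBgn0263569) in Mob2, which encodes a kinase coactivator, had a value of 348.5 with a summit 26 bp from a Mob2 start. mir-966 (FBgn0262317) in Pfas, which encodes an enzyme of purine synthesis, had a value of 265.6 with a summit 7 bp from the Pfas start. mir-4949 (FBgn0263544) in ATPsynC, which encodes subunit c of the mitochondrial ATP synthase, had a value of 242.1 with a summit 134 bp from the start. For tex, Pfas, ATPsynC and Mob2 the precursor's peak was also a peak at a start of the host, and Mob2 had a stronger one of 1037 at another start, 9882 bp from mir-4968.

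mir-954 (FBgn0262302, chr4:626126-626212) was the 1 intergenic precursor that was marked. Its start was 95 bp from a start of mav, which encodes the TGF-β family ligand Maverick. Its peak was the last of the thresholded list, with a value of 211.0 at rank 7287. The overlapping replicate peaks had ranks of 6476, 14732 and 6147, and in replicates 1 and 2 their summits were 225 and 232 bp from the thresholded summit. No other precursor of the 18 had replicate summits that far from the thresholded one.

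Just outside the 500 bp limit were mir-92a at 502 bp, mir-4975 at 610 bp, mir-305 at 611 bp, mir-4985 at 615 bp and mir-4957 at 657 bp. The mir-92a peak was stronger than most of those inside the limit, with a value of 871.0 (rank 1139). In the replicates its nearest summit was 544, 499 and 507 bp downstream with values of 172.9, 255.6 and 468.5, so replicate 2 placed it inside the limit. That peak is also the start peak of the host jigr1. The mir-305 summit was the peak already counted for mir-275. mir-4985, in Fatp3, had as its nearest summit the host's start peak of 441.6.

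The marked share was compared by where a precursor lies. Of the 100 precursors in an intron of a protein-coding gene 8 were marked, and of the 36 in an exon of one 2 were (5.56%). Of 46 inside a noncoding host 6 were marked, as given above, and of 51 intergenic precursors 1 (1.96%). Antisense to protein-coding genes 1 of 25 was marked, and neither of the 2 antisense to noncoding genes was. These classes rest on 0 to 8 marked precursors each, and no test was run between them. By arm, the marked precursors were 3 of 56 on 2L, 2 of 55 on 2R, 4 of 31 on 3L, 5 of 58 on 3R, 1 of 2 on chromosome 4 and 3 of 58 on X. Shares of all genes by arm are not given here, so the counts by arm are a description only. Hairpins whose ends lie within 5 bp of both ends of an intron, as mirtrons do, were marked in 1 of 33 cases, against 17 of the other 227.

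In precursors and in other noncoding genes the share was highest close to a protein-coding start. Among the 29 precursors within 500 bp of one, 5 were marked (17.2%), against 20.4% of other noncoding genes at that distance. From 501 to 2000 bp the share was 3 of 79 precursors (3.8%) against 8.98%, from 2001 to 10000 bp 9 of 110 (8.18%) against 7.49%, and beyond 10000 bp 1 of 42 (2.38%) against 5.22%. The precursor share was lower in 3 of the 4 distance classes and slightly higher in the third. These shares rest on 1 to 9 marked precursors each, and no test was run on them. Precursors lay a median of 2690 bp from a protein-coding start and other noncoding genes 2384 bp.

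**Figure D3:**
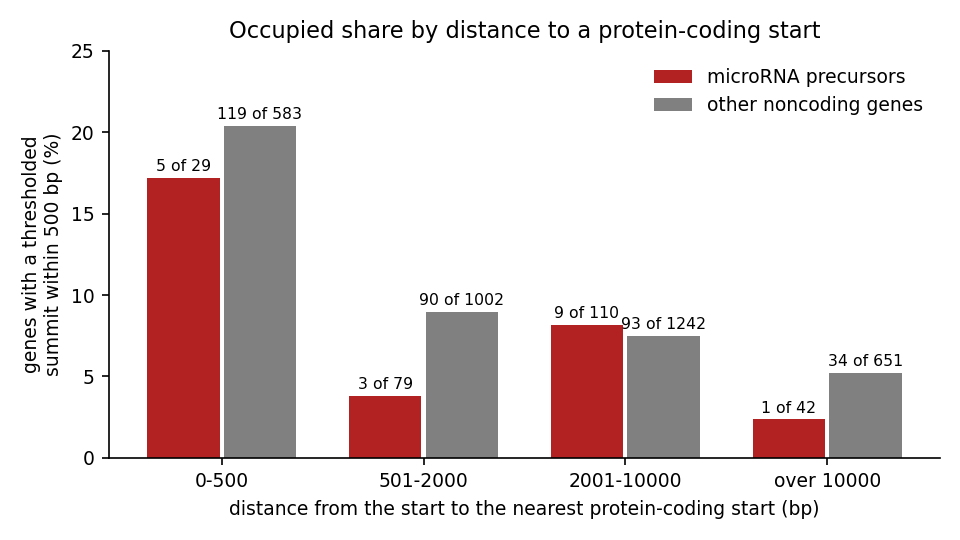
Bars give the percentage of genes with a thresholded summit within 500 bp of a start, with counts above. microRNA precursors are red (left) and other noncoding genes grey (right). Genes are grouped by distance to the nearest protein-coding start, taken from whichever of the gene's starts is closest to one. Both classes are highest within 500 bp of a coding start, at 17.2% and 20.4%.

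Precursors were not far from CG17359 peaks at a larger scale. The nearest thresholded summit was a median of 6566 bp from a precursor's start (quartiles 2385 and 20440 bp), against 7505 bp for other noncoding genes and 4961 bp for protein-coding genes. Within 5000 bp lay a summit for 41.5% of precursors, 42.4% of other noncoding genes and 50.1% of protein-coding genes. The medians from the replicates' strongest peaks were 6683, 6170 and 6464 bp for precursors. In the pooled list the order differed, with medians of 2024 bp for precursors, 1634 bp for other noncoding genes and 731.0 bp for protein-coding genes. The farthest precursor, mir-2279, was 3415441 bp from a thresholded summit.

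**Figure D4:**
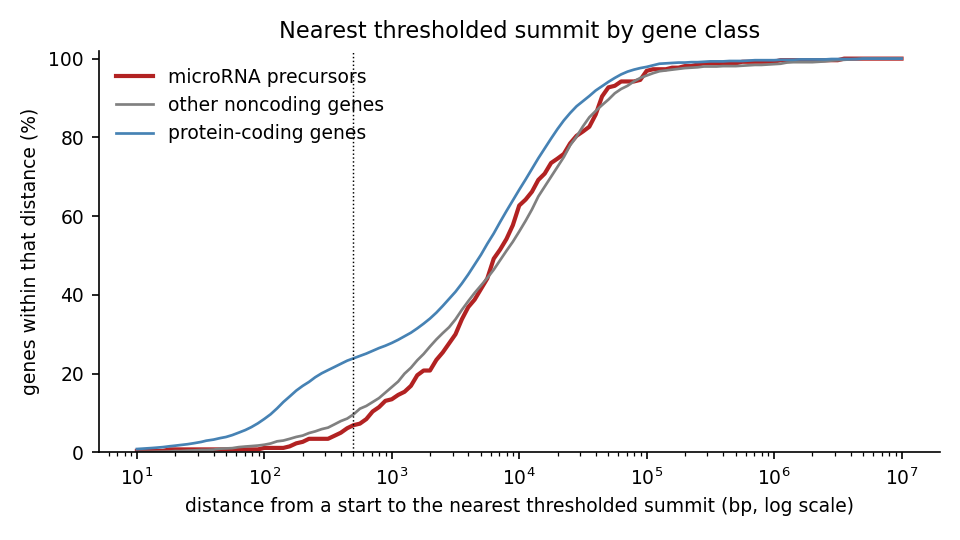
Lines give the percentage of genes whose nearest thresholded summit lies within the distance on the log-scale horizontal axis in bp, for microRNA precursors (red), other noncoding genes (grey) and protein-coding genes (blue), with a dotted line at 500 bp. The precursor line is lowest at 500 bp, at 6.92%, and meets the line of other noncoding genes near 5000 bp, at 41.5% and 42.4%.

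Precursors less than 10 kb apart on the same strand were joined into clusters. This gave 203 loci, of which 22 were clusters of 2 to 12 precursors holding 79 in all. A member was marked in 4 of the 22 clusters, namely mir-275 with mir-305, mir-317 with mir-277 and mir-34, mir-92a with mir-92b, and mir-279 with mir-996. Each had exactly 1 marked member. Counted by precursor, 4 of the 79 in clusters were marked (5.06%) and 14 of the 181 single ones (7.73%). A cluster has several starts and so more chances of a marked member. The mir-317, mir-277 and mir-34 locus, of 9909 bp, and the mir-92a and mir-92b locus, of 4992 bp, each held 2 thresholded summits within their span, and no other cluster held any. In the first, mir-277 lay 692 bp and mir-317 3369 bp from a thresholded summit.

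Several well known clusters were not marked. The 8 precursors of the mir-309 cluster, whose microRNAs clear maternal messenger RNAs after the onset of zygotic transcription, had their nearest thresholded summit 8840 bp upstream of mir-309 with a value of 241.3. None of the 8 had a summit within 500 bp in any replicate list. The let-7 complex, which times late development with let-7, mir-100 and mir-125, had its nearest thresholded summit 5349 bp from mir-125, a strong peak of 1212. The mir-310 cluster of 7 had its nearest 1286 bp from mir-310 with a value of 271.1. The testis-expressed clusters mir-959 to mir-964 and mir-972 to mir-979 were farther away, 93395 and 36176 bp at the closest.

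The counts for known families are set against the 6.92% of all precursors and rest on few genes each, with no test between them. None of the 4 Hox precursors was marked, with mir-10 the closest at 9196 bp. None of the 13 K-box precursors, which target the Notch pathway genes that carry K boxes, was marked, with mir-308 at 698 bp, mir-2b-2 at 727 bp and mir-2a-1 at 1019 bp the closest. None of the 4 mir-9 family precursors was marked, with mir-9a at 3179 bp the closest. Of 12 muscle and nerve precursors, mir-34 was marked, and mir-277 at 692 bp and mir-8 at 857 bp came next. The other 9, which include mir-1, mir-124 and mir-7, were farther from a thresholded summit than those 3. The highest count was in growth and metabolism, a list chosen with earlier results of these data known, in which 3 of 7 precursors were marked, mir-275, mir-14 and mir-ban, and mir-305, mir-375, mir-33 and mir-278 were not. The mir-375 summit, 697 bp upstream, had a value of 1099.

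Host genes were next examined at their own starts, since these can be where the primary transcript begins. The 260 precursors included 182 inside 156 host genes on the same strand. Of 124 protein-coding hosts, 50 had a thresholded summit within 500 bp of a start (40.3%), against 23.9% of all protein-coding genes. In the replicates' strongest peaks the share was 38.7%, 46.0% and 38.7% (41.1 ± 4.19%, SD, n = 3). Hosts had a median length of 13462 bp, against 2166 bp for all protein-coding genes, and 68 of the 124 had 2 or more starts. Among genes with 2 or more starts, 38 of the 68 hosts were marked (55.9%), against 40.2%. Among genes with 1 start, 12 of 56 hosts were (21.4%), close to the 17.9% of all such genes. The part of gene length and number of starts in the share at hosts was not tested.

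The summit at a host's start seldom reached the precursor. A host can have several start summits, and 12 of the 124 coding hosts had 2 or more. Counting all of them, 4 of the 50 coding hosts (tex, Pfas, ATPsynC and Mob2) had one within 500 bp of a hosted precursor and 46 had none. The nearest start summit lay a median of 4681 bp from the precursor and the strongest a median of 6505 bp. The strongest, named after their values were seen, were at for, which encodes a cGMP-dependent protein kinase and hosts mir-4972, and at Btk, which encodes a tyrosine kinase and hosts mir-2b-1. The for peak had a value of 3412 (rank 67), with 872.6, 1066 and 1477 in the replicates. The Btk peak had a value of 3214 (rank 78), with 915.3, 915.5 and 1394. The peak of spi, the gene of the epidermal growth factor receptor ligand Spitz and host of mir-2a-1, mir-2a-2 and mir-2b-2, had a value of 1389 and lay 5523 bp from the nearest of them, and a weaker start summit of spi lay 2675 bp away. Of the 100 precursors in coding introns 18 had a thresholded summit somewhere in the same intron. The share over other introns is not given here, so this count is a description only.

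Of 32 noncoding hosts 10 had a thresholded summit at a start (31.2%), against 10.4% of all lncRNA genes. The replicates' strongest peaks marked 8, 10 and 9 of these hosts (28.1 ± 3.12%, SD, n = 3), against 10.4%, 10.5% and 10.5% of lncRNA genes. No test was run on this difference. Any start of a host counts, and 12 of the 32 noncoding hosts had 2 or more starts. Of these 12 hosts 5 were marked, and of the 20 with 1 start 5 were. The noncoding hosts had a median length of 6465 bp. Shares of lncRNA genes by number of starts are not given here, so the part of starts and length in this share was not tested. The host of mir-279 and mir-996, lncRNA:CR31044, had the strongest of the 10, a peak of 3543 (rank 60) that ranked 56, 61 and 64 in the replicates. It lay 1149 bp from mir-279, so the peak beside the hairpin and the host's start peak are separate. The host of mir-14 had a start peak of 564.2 at 882 bp from the hairpin, and the host of mir-8, a growth regulator of the mir-200 family, one of 305.1 at 857 bp. The start peaks of the hosts of mir-275, mir-276a and mir-ban had values of 258.3, 231.1 and 286.9 at 2284, 1333 and 14236 bp from the hairpins. These are the strongest start peaks, and the host of mir-ban had a weaker one 2374 bp from the hairpin.

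The other 4 marked noncoding hosts fell outside the rule for named genes and were named after their values were seen. They were the hosts of mir-282 with a start peak of 897.4, of mir-4951 (Hsromega, the heat shock inducible nuclear RNA) with 437.2, of mir-31b with 273.2 and of mir-bft with 217.5. Of the 10 start peaks 5 were marked among the strongest 7287 peaks of all 3 replicates, those of the hosts of mir-279, mir-282, mir-8, mir-14 and mir-4951. The hosts of the mir-309 cluster, of let-7, of mir-1, of mir-124 and of mir-34 had no thresholded start peak.

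**Figure D5:**
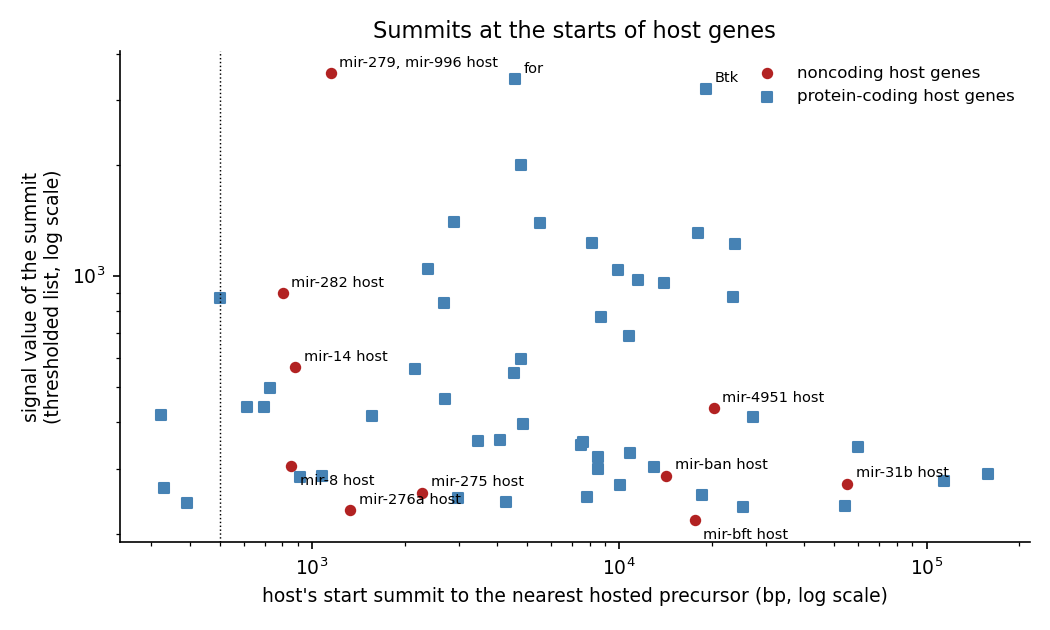
Each point is a host gene with a thresholded summit within 500 bp of a start, by the distance in bp from its strongest such summit to the nearest hosted precursor (log scale) and that summit's signal value (log scale), for 10 noncoding hosts (red circles) and 50 protein-coding hosts (blue squares), with a dotted line at 500 bp. All but 3 points lie to the right of the line, Mob2 among them although a weaker start summit of it lies 393 bp from mir-4968, and the host of mir-279 and mir-996 is the highest at 3543.

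The DNA under precursor peaks was described by its composition and by 4 known letter patterns. Over 200 bp the 18 summits had a median of 42.5% G and C (29.4% to 55.7%), against 34.3% over all thresholded summits (quartiles 29.9% and 39.8%). Windows around the starts had medians of 42.3% in marked and 42% in unmarked precursors, whereas the hairpins themselves had medians of 49.5% in marked and 41.5% in unmarked precursors. Within 50 bp of the summit, on either strand, the pattern TATCGATA (the DRE element) occurred in 0 of the 18 and 1.03% of all thresholded peaks. CAGGTAG, the letters bound by the zygotic activator Zelda, occurred in 0 of 18 and 0.384%. GAGAG, the letters bound by GAGA factor, occurred in 3 of 18 (mir-14, mir-4918 and mir-4962) and 9.33%. TATAAA occurred in 4 of 18 (mir-9378, mir-2282, mir-92b and mir-9377) and 23.3%. No pattern contains another, and with 18 windows these counts describe the sequences only. The 50-base stretches around the starts were unique on the chromosome arms for a median of 100% of positions. By this count 2 precursors, mir-10404-3 and mir-10404-5, were under 50%. Copies elsewhere in the genome were not counted.

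Genes of the microRNA pathway and of the related small interfering RNA pathway were set beside the precursors. Of 18 such genes 6 had a thresholded summit within 500 bp of a start (33.3%), read against 23.9% of protein-coding genes, and 13 had a pooled one (72.2%), read against 46.8%. The thresholded count of 6 among 18 is close to that background, and no test was run. The strongest was at gw, which encodes the GW182 protein that Argonaute-1 recruits for silencing, with a value of 884.8 and replicate values of 226.6, 243.3 and 434.6. The peak at r2d2, the partner of Dicer-2 in loading small interfering RNAs, had a value of 777.3, with 180.3, 213.4 and 358.6. Cbp20, the small cap-binding subunit, had 496.9, and Ars2, which links the cap-binding complex to hairpin processing, had 462.5. AGO1, the main microRNA effector, had 357.8 with replicate values of 86.40, 119.9 and 148.8. Nbr, an exonuclease that trims 3′ ends of microRNAs such as miR-34, had 225.2 at rank 6798.

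Of these 6 genes 5 were marked among the strongest 7287 peaks of all 3 replicates, and Nbr was marked in 1. drosha, pasha and Dcr-1, which cut the hairpins, had no thresholded summit within 500 bp. The nearest to pasha was 1808 bp away with a value of 3496, and the nearest to drosha and Dcr-1 were 6744 and 9605 bp away. Tailor, a uridylating enzyme that acts on mirtron hairpins, had one 577 bp away with a value of 586.2. Both Dcr-2 and AGO2, of the small interfering RNA pathway, were unmarked in the thresholded list and marked in the pooled one.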

How the data were processed

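Peaks came from anti-GFP ChIP-seq of 3 biological replicates of whole embryos, on the dm6 assembly with chromatin sheared by sonication, per the labels. Per the deposited text files, the pooled list came from the alignments of all replicates together and the thresholded list from the replicate and pooled lists, and its name gives an irreproducible discovery rate procedure. Aligner, caller and cut-off: not given in the sources used here. Per-peak signal values and -log10 q-values were deposited by the authors. The signal ranked peaks, and the q-value was not used. Summit positions were deposited by the authors as an offset from the peak's start. The replicate and pooled lists stop at 30000 peaks, a cap and not a measured strength, and depth and counting error are unknown.

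Arm names and lengths fitted the Release 6 reference. Gene models came from its Ensembl annotation without transposable elements and without 481 entries that repeat single mature microRNAs. All 260 precursors had the same coordinates in RefSeq, the source of sequences. A gene was called marked if a summit lay within 500 bp of a start, counted over transcripts for genes other than precursors, with Python 3.11.15 and NumPy 2.4.6. Overlap meant 1 bp or more. Counts in the thresholded list have no replicate error. Errors are SDs over replicates, and the 1 test was the exact sign-flip permutation test. Steps were tested on simulated peaks. The members, gene lists and settings were chosen with earlier results of these data known. The rule for named genes took every marked precursor, the 5 next nearest, up to 3 nearest of each listed family, their hosts and 18 pathway genes. Other settings covered window, measured point, peak list, cluster distance, comparison genes and replicates left out. Sequences from arm 2R are not shown.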

Additional observations from a re-analysis of the deposited data

How the results depend on the processing

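The count of 18 marked precursors depended on the window and on the list. It was 9 with a window of 250 bp and 35 with 1000 bp. It was 5 among the peaks above the median signal of the thresholded list and 61 in the whole pooled list. Requiring overlap with the strongest peaks of 2 replicates, with the third left out, gave 10 to 12 precursors (11, 12 and 10 without replicates 1, 2 and 3). Of all 7287 thresholded peaks, 5758, 5796 and 5593 met the same requirement. With each replicate left out, mir-275, mir-14, mir-4978, mir-2282 and mir-4949 were lost. The count of marked precursors was 19 when measured from the nearest base of the hairpin and 22 when any base of the peak counted. The median distance to a thresholded summit, 6566 bp, was 13188 bp from the stronger peaks, 2024 bp from the pooled list and 8530 to 8984 bp with a replicate left out. The share difference kept its sign in every setting run, from -20.0 points with whole replicate lists to -3.58 against other noncoding genes. It ranged from -14.9 to -15.2 with a replicate left out. Against protein-coding genes with 1 start it was -11.9, and with the single mature microRNA entries kept -14.7, both chosen after seeing the data. Clusters with a marked member numbered 3 with a joining distance of 3 kb and 5 with a window of 1000 bp, against 4. Marked precursors near a coding start numbered 5 at 500 bp and at 1000 bp. The test used differences within each replicate, and no replicate block between groups could be fitted because all samples belong to 1 group. Unknown depth limits what a missing peak means.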
